A study of Homo sapiens with 45 samples.

Results

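Live H1 cells lysed in Triton X-100 fell into 2 library sets, told apart only by the code in brackets after each cell's name. Cells were chosen by title (live, Triton lysis) and split by that code: 5 cells with the code beginning US-1457350 are called set 1 here, and 6 with the code beginning US-1457351 are called set 2, together 11 of the 45 cells in the series. H1 is an established human embryonic stem cell line. All 45 cells were H1, at passage 40, grown on Matrigel in mTESR1 medium and detached with Accutase, and each was made into its own Smart-seq2 and Nextera XT library. The 11 cells were alive at sorting, since they excluded the dye DAPI, and were unfixed. The same codes also divide live cells taken through FRISCR, which releases RNA from single cells after fixation (8 and 7 cells), fixed FRISCR cells (6 and 6) and fixed Triton cells (4 and 3). The labels do not say what the codes stand for, and name no separate cultures, so each set counts as 1 sample: no p-value or standard error is given between sets. Per-cell values below describe these cells, and every interval covers counting error of reads only. The libraries carry no molecular identifiers, so reads include PCR copies and the intervals do not cover amplification.

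In Smart-seq2 a poly(A) tail is primed with oligo-dT and full-length cDNA is amplified by PCR before the library is cut and tagged. A panel of the same cell type split over library sets shows which transcripts and RNA classes vary along with the set. The labels do not say whether the cells of a set were processed together. Human embryonic stem cells depend on the transcription factors POU5F1, SOX2 and NANOG, divide quickly and use glycolysis heavily, which makes pluripotency, cell-cycle, ribosome and glycolysis genes the natural groups to read in them.

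Both sets held cells with the transcripts of pluripotent cells. All 10 pluripotency markers were in the table, and 9 were counted in every one of the 11 cells, the exception being GDF3, counted in 3 cells of set 1 and 4 of set 2. Their summed level was 4061 to 5369 CPM (counts per 1000000 counts) in set 1 and 4231 to 5717 in set 2. POU5F1, the central pluripotency factor, stood at 1140, 676, 872, 763 and 778 CPM in set 1 and between 628 and 1171 (median 971) in set 2. NANOG stood at 59.8, 107, 238, 79.6 and 1.81 CPM against 0.706 to 208 (median 77.7), so 1 cell of each set held almost no NANOG reads. Of 7 mesendoderm markers 6 had no count in any cell, and 4 of 5 trophoblast markers had none. Fibroblast markers summed to 365 to 1544 CPM in set 1 and 303 to 844 in set 2, with COL3A1, DCN, LUM and POSTN at 0 throughout and THY1, which stem cells also express, giving most of the sum. Neural markers summed to 33.4 to 71.6 and 22.5 to 45.2 CPM, with SOX1 and HES5 at 0.

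Depth was alike in the sets. Totals ran from 4310731 to 6594061 counts per cell in set 1 (median 4971061) and from 4617540 to 5824586 in set 2 (median 5330159). After each cell was thinned to 1000000 counts, set 1 cells had 8833 to 10192 genes with a count (median 9084, SD 560) and set 2 cells 9469 to 10263 (median 9775.5, SD 335). The medians differed by 691.5 genes and the ranges overlapped. The 100 most abundant genes of a cell took 22.7% to 25.5% of its counts in set 1 (median 25.1%) and 28.5% to 36.6% in set 2 (median 29.5%), with no overlap, and cell 1 of set 2 held the 36.6%, the others 28.5% to 30.0%.

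Most genes differed little between the sets. Over the 7408 genes with at least 20 CPM in either set, taken as summed counts over summed totals, 77.8% were within 2-fold, and the median size of the log2 ratio was 0.51. In set 2, 700 genes (9.45%) were over 2-fold higher and 947 (12.8%) over 2-fold lower than in set 1. A stricter description asks that the cells do not overlap: every set 2 cell lay above every set 1 cell for 63 genes (0.85%) and below for 123 (1.66%). With 1 cell left out these counts were 72 to 125 (highest without cell 1 of set 2) and 142 to 193 (highest without cell 4 of set 1), as fewer cells must keep apart. The share of higher genes among those past 2-fold depended on the scaling. It was 42.5% on total counts, 62.8% with TMM factors, 58.4% with median-of-ratios factors and 53.9% when the abundant rows were taken out of the total. The median log2 ratio of all genes moved with it, from -0.14 on total counts to 0.10, 0.05 and -0.02. Gene lists are therefore given as distances from the median of all genes, -0.14. Relative to that median, 860 genes (11.6%) were over 2-fold higher and 725 (9.79%) over 2-fold lower. With TMM factors the non-overlapping genes were 124 higher, among them all 63, and 54 lower, all of them among the 123.

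The clearest differences lay in a single very abundant row, TVAS5, and in the far less abundant MTRNR2L class, which both took a larger share of set 2. TVAS5, a row of the deposited table that matches no current or older gene symbol and whose role is not described here, took 3.44%, 3.19%, 3.28%, 2.76% and 3.47% of counts in set 1 and 6.90% to 13.0% (median 8.07%) in set 2, a ratio of medians of 2.46. No set 1 cell reached the lowest set 2 cell, and without cell 1 of set 2 its cells ran from 6.90% to 8.81%. With BC018860, OK/SW-cl.16, STRF6 and cytochromeb, also without a matching symbol, the 5 rows took 5.03% to 7.36% in set 1 (median 6.63%) and 9.72% to 21.4% in set 2 (median 11.5%). Nearly all of that difference was TVAS5: the other 4 rows summed to 2.27% to 4.18% in set 1 (median 3.16%) and 2.82% to 8.43% in set 2 (median 3.62%), with overlap. The ratio of medians, set 2 over set 1, was 1.37 for BC018860, 1.077 for OK/SW-cl.16, 1.12 for STRF6 and 0.803 for cytochromeb. Cell 1 of set 2 held the top value for each of the 5. Rows named for ribosomal RNA took 0.68% to 1.26% in set 1 and 0.565% to 1.90% in set 2 (medians 1.09% and 1.64%), and overlapped only through that same cell 1, which was lowest for them. Protein-coding rows took 88.6% to 91.6% of set 1 counts and 75.1% to 86.2% of set 2 counts. That order is tied to the scaling: the medians were higher in set 2 by 0.357 percentage points without the abundant rows in the total.

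The MTRNR2L genes, nuclear copies that resemble the mitochondrial 16S rRNA gene MT-RNR2 and encode humanin-like peptides, were higher in set 2 in all 3 measured members. Their summed share was 0.0834%, 0.0907%, 0.101%, 0.0828% and 0.103% in set 1 and 0.284% to 0.402% (median 0.338%) in set 2, 3.72-fold by medians. MTRNR2L2 stood at 784, 858, 963, 788 and 970 CPM in set 1 and 2674 to 3836 (median 3190) in set 2, 3.71-fold higher on summed counts (counting interval 3.66 to 3.77). MTRNR2L8 was 5.78-fold higher (5.31 to 6.31) and MTRNR2L1 2.40-fold (2.11 to 2.73). Cells of the sets did not overlap for any of the 3. These are close copies of one another, with transcripts at 93.0% (MTRNR2L8) and 88.5% (MTRNR2L1) identity to MT-RNR2 where aligned, so reads may have been divided among them or come from the mitochondrial gene, and their separate values are uncertain. In live FRISCR cells the class took a median of 0.0271% in set 1 and 0.0334% in set 2, and TVAS5 took 0.706% and 0.834%; both overlapped between sets there.

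**Figure D1:**
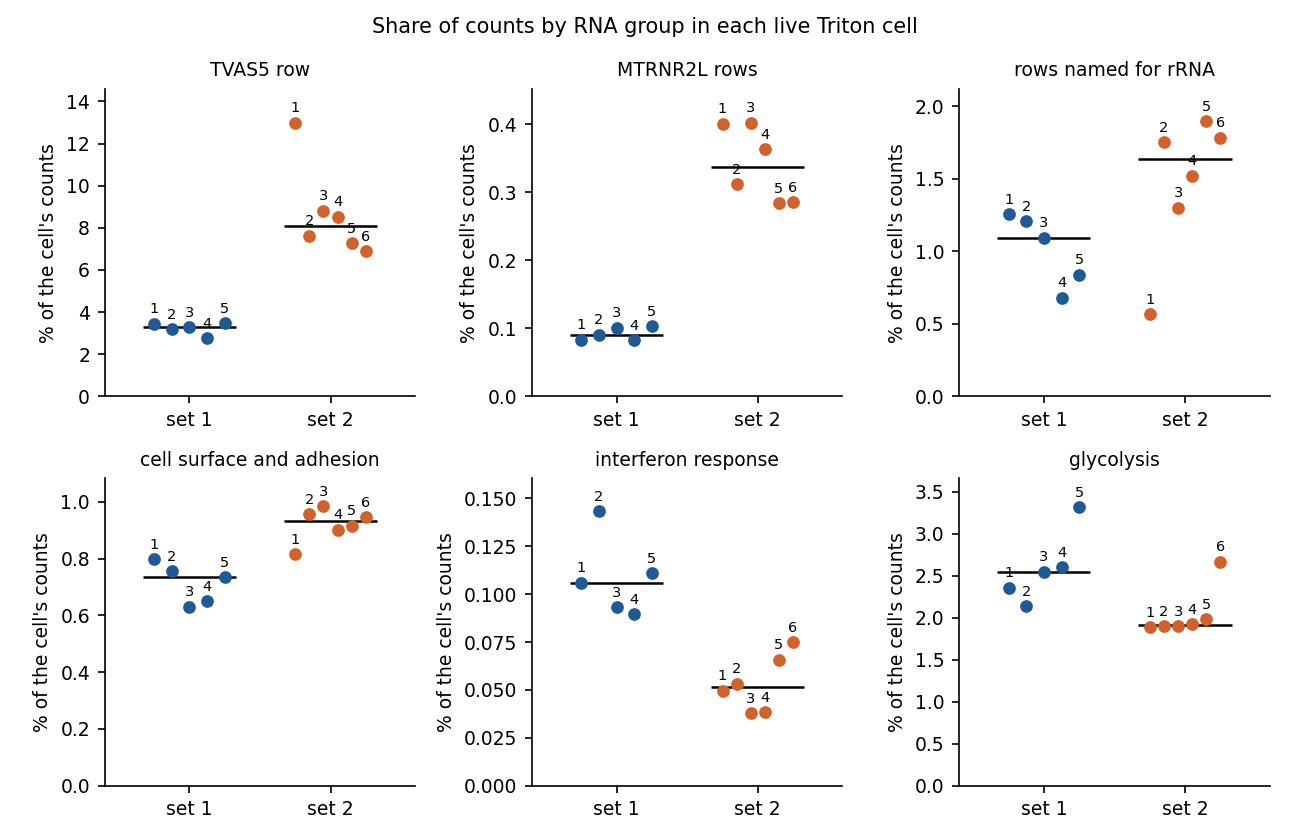
Share of a cell's counts, in percent, taken by 6 RNA classes or gene lists in the 5 set 1 and 6 set 2 live Triton cells. Each point is 1 cell, numbered within its set, and the line is the set median; TVAS5 runs from 2.76% to 3.47% in set 1 and from 6.90% to 13.0% in set 2.

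Of the 34 lists and classes, the shares of 7 did not overlap: 3 were higher in set 2 (TVAS5 with the other unmatched rows, MTRNR2L, and cell surface and adhesion genes) and 4 were lower (interferon response, oxidative phosphorylation, aminoacyl-tRNA synthetases and neural markers). Cell surface genes took 0.631% to 0.797% in set 1 and 0.816% to 0.985% in set 2, and kept apart under all 4 other scalings and units, but this rested on CD24. Without CD24 the class took 0.553% to 0.685% in set 1 and 0.638% to 0.698% in set 2, with medians of 0.648% in both. Interferon response genes took 0.0895% to 0.143% against 0.0379% to 0.0748% and kept apart under all but TMM factors. The other 3 overlapped once the abundant rows were out of the total or TMM factors were used.

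Among single genes, several with the largest differences upward in set 2 were sparse in set 1. TMED9, which helps load cargo leaving the endoplasmic reticulum, stood at 0, 4.14, 21.6, 0 and 0 CPM in set 1 and 70.0 to 106 (median 92.5) in set 2, 18.2-fold higher on summed counts (15.2 to 21.9). Every set 2 cell lay well above the highest set 1 cell. C2orf44 (now WDCP) was counted in 1 cell of set 1, at 62.4 CPM, and in every set 2 cell, at 64.7 to 113 (median 91.4), 9.02-fold higher (7.96 to 10.3). EIF2AK1, the heme-regulated kinase that phosphorylates the translation factor eIF2 alpha, stood at 14.4, 0.36, 5.88, 0.232 and 15.3 CPM against 31.0 to 92.6 (median 69.7). It was 8.30-fold higher (7.18 to 9.64), and no set 1 cell passed 15.3 CPM. GLUD1, the mitochondrial glutamate dehydrogenase, was 6.52-fold higher, and NCLN, a membrane protein of the endoplasmic reticulum, 7.03-fold.

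SLC1A5, a transporter of glutamine and other neutral amino acids, stood at 132, 168, 12.4, 81.9 and 64.6 CPM in set 1 and 218 to 590 (median 390) in set 2, 4.08-fold higher (3.91 to 4.26). CAD, whose protein carries out the first steps of pyrimidine synthesis, stood at 3.03, 14.8, 15.3, 13.2 and 27.8 CPM against 31.0 to 93.7 (median 55.0), 4.22-fold higher. The lowest set 2 cell was just above the highest set 1 cell. PHF5A, a subunit of the SF3B splicing complex, stood at 32.6, 35.7, 26.9, 24.8 and 9.66 CPM against 49.6 to 171 (median 108), 4.31-fold higher. It was 66.7 and 155 CPM in the live FRISCR sets, also without overlap. That held there for 2 of the 63 genes higher without overlap, beside 0.195% of all genes. HNRNPA0, an RNA-binding protein, was 4.42-fold higher, DCLK1, a doublecortin-like kinase, 4.85-fold, and BTBD10 3.80-fold. SLC1A5 differed far less in live FRISCR cells, 397 CPM in set 1 and 428 in set 2. DCLK1 had the opposite order in fixed FRISCR cells, 130 CPM in set 1 and 59.0 in set 2.

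Downward, as upward, most of the genes with the largest differences were still counted in every cell of the lower set. CCM2, SLC39A11 and C1orf109 were counted in 5 of the 6 set 2 cells. CCM2, a scaffold protein mutated in cerebral cavernous malformation, stood at 84.3, 70.8, 61.9, 44.5 and 80.5 CPM in set 1 and 0 to 25.1 (median 11.7) in set 2, 6.09-fold lower (5.44 to 6.84). SLC39A11, a zinc transporter, stood at 105, 96.4, 62.6, 126 and 66.0 CPM against 0 to 30.9 (median 16.2), 5.89-fold lower. Even the lowest set 1 cell was above every set 2 cell in both. CCM2 had the opposite order on sums in FRISCR cells: 18.3 CPM in set 1 and 33.1 in set 2 of live cells, 5.24 and 44.3 in fixed ones. AK4, an adenylate kinase of the mitochondrial matrix, stood at 258, 479, 336, 609 and 653 CPM against 53.7 to 217 (median 89.9), 4.14-fold lower (3.99 to 4.30). ZNF292, a zinc-finger protein, stood at 108, 118, 256, 139 and 247 CPM against 16.2 to 54.0 (median 39.9), 4.36-fold lower. BCKDHB, a subunit of the enzyme that breaks down branched-chain keto acids, was 3.50-fold lower, CHSY1, a chondroitin sulfate synthase, 4.24-fold, and RAB11FIP1, an effector of the recycling endosome protein Rab11, 5.73-fold. RNF213, a ubiquitin ligase, was 3.99-fold lower and ZNF490 3.32-fold; ATCAY, C1orf109 and PLXDC2 were 4.46-fold, 4.86-fold and 3.62-fold lower. All 24 genes named by size, 12 each way, stayed past 2-fold in each of 17 settings. They were picked from these values for large ratios without overlap, and most settings only leave out 1 cell. Staying past 2-fold was thus largely fixed by the choice and gives them no support.

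**Figure D2:**
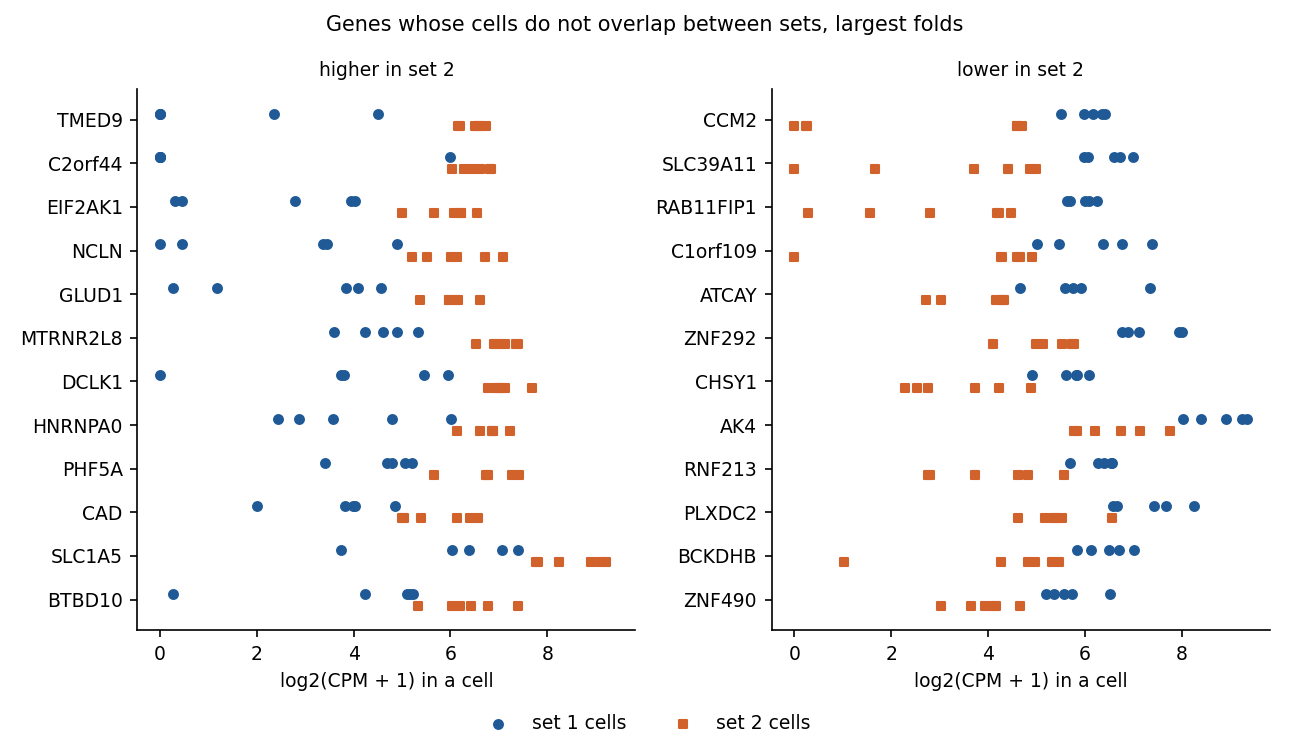
Level of the 24 genes with the largest ratios among those whose cells do not overlap, as log2(CPM + 1) per cell. Circles are the 5 set 1 cells and squares the 6 set 2 cells; the left panel holds the 12 higher in set 2, such as TMED9 (70.0 to 106 CPM in set 2), and the right panel the 12 lower, such as CCM2 (0 to 25.1 CPM in set 2).

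Above 20 CPM in set 2, 5 genes had no count in any of the 5 set 1 cells and a count in all 6 set 2 cells, and no gene showed the reverse. They were chosen by this pattern after the values were seen. INPP5K, an inositol polyphosphate phosphatase, had 1344 counts over set 2 (42.5 CPM, 24.9 to 78.2 per cell), at least 371-fold higher against a floor of 3 counts over set 1. FAM107B had 1001 counts (31.6 CPM, at least 276-fold higher), but per cell it ran from 0.175 to 78.0 CPM, with a single count in each of 2 cells. CCND3, a D-type cyclin that drives entry into S phase, had 728 counts (23.0 CPM, 1.75 to 46.7 per cell, at least 201-fold higher). TOMM40L, a paralog of the mitochondrial import pore TOMM40, had 680 (21.5 CPM, 0.208 to 42.9 per cell, at least 188-fold higher), with a single count in 1 cell. BCAR1, a docking protein of focal adhesions, had 667 (21.1 CPM, from 2.97 per cell upward, at least 184-fold higher). With 26187879 counts over set 1 in all, that floor is 0.115 CPM.

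Among gene lists, those of pluripotency, the ribosome and splicing lay above the median of all genes, and those of glycolysis, hypoxia and the interferon response below it. Of 32 lists with at least 3 measured genes, 18 lay 0.2 or more from the all-gene median on the log2 scale, 8 higher and 10 lower in set 2. Of the 18, 15 kept their side under every alternative run. TMM factors, median-of-ratios factors and reduced totals shift all ratios alike. Apart from which genes pass the filter, those alternatives could not move a list.

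**Figure D3:**
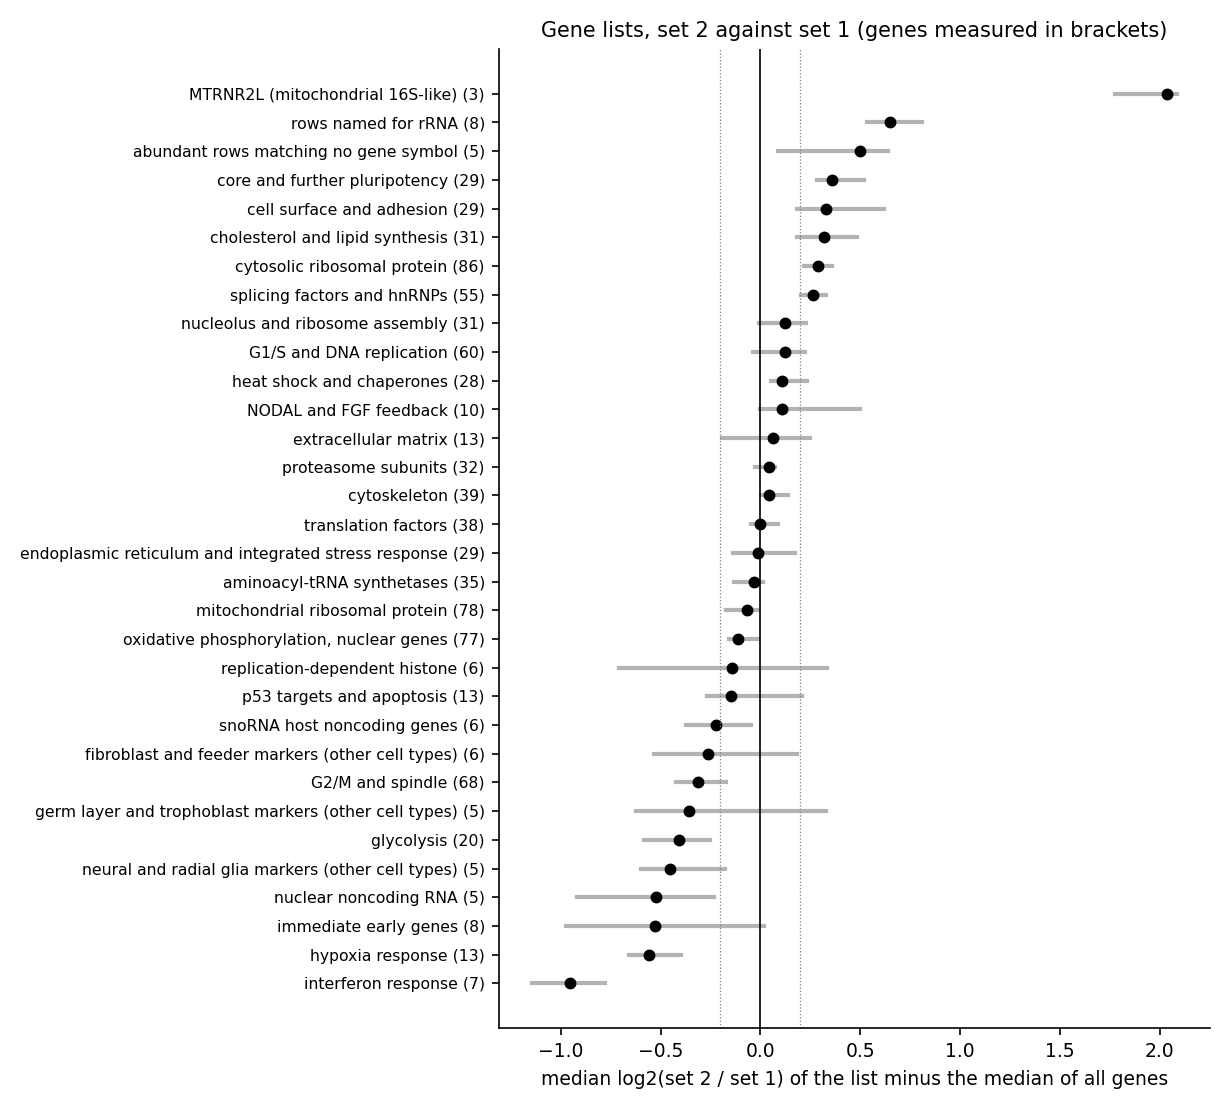
Distance of each list's median log2 ratio (set 2 over set 1) from the median of all genes, for lists with at least 3 measured genes (number in brackets). The dot is the value on total counts, the grey bar runs from the lowest to the highest value over the settings, and dotted lines mark 0.2 either way; MTRNR2L lies at 2.04 and the interferon response at -0.95.

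Pluripotency genes lay 0.36 above the median of all genes (range 0.28 to 0.52), with 22 of 29 measured members above it. Of the 29, 2 were over 2-fold higher, no larger a share than the 9.45% of all genes, and none over 2-fold lower. Of the 29, 4 had cells that did not overlap, all higher in set 2, beside 0.85% of all genes higher without overlap. CD24, a surface glycoprotein of stem cells, stood at 1121, 757, 783, 941 and 869 CPM in set 1 and 1637 to 3191 (median 2692) in set 2, 2.88-fold higher. SALL2, a zinc-finger transcription factor, stood at 88.7, 57.8, 178, 84.0 and 214 CPM against 355 to 500 (median 408), 3.44-fold higher. For both, a gap separated the sets. The others, TERF1, a telomere-binding protein, and TDGF1, a NODAL co-receptor, were 1.68-fold and 1.52-fold higher. ESRG, an embryonic stem cell noncoding RNA, went the other way on sums, at 2237, 3028, 2426, 1836 and 3482 CPM against 671 to 2296 (median 1315), with overlap. In live FRISCR cells the list lay 0.15 above its all-gene median, and CD24 was 2665 and 3122 CPM in the sets. Cell surface and adhesion genes, a list that also holds CD24, lay 0.33 above the median of all genes, with 17 of 29 above it. PTK7, a pseudokinase of Wnt signalling, was counted in 2 set 1 cells (78.6 and 3.06 CPM) and in all 6 of set 2, at 13.6 to 156 (median 80.0), with overlap through the first.

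Ribosomal protein genes lay 0.29 above the median of all genes (0.22 to 0.36), with 74 of 86 above it. The distance was small for each gene: of the 86, 1 was over 2-fold higher and 1 lower, beside 9.45% and 12.8% of all genes. RPL21 stood at 259, 255, 222, 371 and 185 CPM in set 1 and 388 to 585 (median 543) in set 2, 2.02-fold higher, with no overlap. RPL39, RPL5 and RPS13 also kept apart, at 1.49-fold, 1.38-fold and 1.53-fold higher. With RPL21 these were 4 of the 86, beside 0.85% of all genes higher without overlap. RPL7 went against the list, at 2439, 2730, 2559, 2543 and 2948 CPM against 1605 to 2167 (median 1801), 1.42-fold lower with no overlap. Many ribosomal protein genes have near-identical pseudogenes, so these values are uncertain where reads could be split. Translation factors as a list lay at the all-gene median (0.00), but EEF2, the elongation factor that moves the ribosome along, summed to 238 CPM in set 1 and 623 in set 2. In live FRISCR cells the ribosomal protein list lay 0.34 above its all-gene median.

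Splicing factors and hnRNPs lay 0.26 above the median of all genes, with 42 of 55 above it. Of the 55, 5 were over 2-fold higher, close to the 9.45% of all genes. HNRNPK stood at 1001, 675, 896, 1262 and 703 CPM in set 1 and 1321 to 1706 (median 1565) in set 2, 1.69-fold higher. U2AF2, the large subunit of the factor that reads the polypyrimidine tract, stood at 23.5, 4.50, 15.1, 6.96 and 7.85 CPM against 30.4 to 79.7 (median 35.4), 3.86-fold higher. Neither overlapped. Of the 55, 3 were higher without overlap and 1 lower, beside 0.85% and 1.66% of all genes. SF3B1, a branch-site factor of the same machinery, was 1.61-fold lower, at 699, 696, 711, 1063 and 658 CPM against 337 to 625 (median 451). The list lay 0.12 above the median in live FRISCR cells and 0.02 above in fixed ones.

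Interferon-response genes were lower in set 2 in all 7 measured members relative to the median of all genes, and 4 of 7 were over 2-fold lower, beside 12.8% of all genes. The list's distance was -0.95 (-1.14 to -0.78), the furthest below of the 32. IFITM1, a membrane protein that restricts viral entry and is high in embryonic stem cells, stood at 337, 552, 282, 279 and 514 CPM in set 1 and 133 to 172 (median 145) in set 2, 2.65-fold lower (2.56 to 2.74). IFITM3, a relative, stood at 266, 307, 157, 177 and 211 CPM against 52.7 to 129 (median 104), 2.26-fold lower. Neither overlapped, and they were 2 of the 7, beside 1.66% of all genes lower without overlap. IFITM2 stood at 192, 290, 261, 239 and 267 CPM against 101 to 244 (median 121) and did overlap. These 3 genes are close copies, so reads may have been split among them. The list lay 0.44 above the all-gene median in live FRISCR cells, the opposite side, and 0.40 below it in fixed FRISCR cells; the difference between conditions was not tested.

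Glycolysis genes lay 0.41 below the median of all genes (-0.58 to -0.25), with 17 of 20 below it, and hypoxia genes 0.56 below, with 10 of 13 below. PKM2 (pyruvate kinase M) stood at 1670, 1782, 1284, 1197 and 2391 CPM in set 1 and 435 to 978 (median 659) in set 2, 2.45-fold lower. TPI1, triosephosphate isomerase, named after its values were seen, stood at 3164, 2846, 2756, 3187 and 3823 CPM against 1361 to 2622 (median 1572), 1.80-fold lower. These 2 of the 20 were the only glycolysis genes whose cells did not overlap, beside 1.66% of all genes lower without overlap. LDHA, lactate dehydrogenase, stood at 1065, 1641, 2079, 2327 and 3600 CPM against 711 to 2067 (median 1242). GAPDH went the other way, with a log2 ratio of 0.31, and so did PFKL, a phosphofructokinase at 0, 16.6, 69.7, 0 and 6.84 CPM against 4.41 to 132 (median 78.4). Cell 6 of set 2 held the highest share of its set for both lists: 2.67% for glycolysis against 1.89% to 1.99% in the other 5, and 0.434% for hypoxia against 0.209% to 0.280%. In set 1 the hypoxia share ran from 0.303% to 0.671%, and BNIP3, a mitophagy receptor induced by low oxygen, from 84.2 to 830 CPM. In live FRISCR cells glycolysis lay 0.17 and hypoxia 0.19 below the all-gene median.

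G2/M and spindle genes lay 0.31 below the median of all genes, with 21 of 68 above it. Of the 68, 5 were over 2-fold lower and 2 over 2-fold higher, smaller shares than the 12.8% and 9.45% of all genes. No G2/M member kept the cells of the sets apart, beside 0.85% of all genes higher and 1.66% lower without overlap. TOP2A, the topoisomerase of dividing cells, stood at 636, 506, 1496, 294 and 651 CPM in set 1 and 114 to 993 (median 433) in set 2. CCNB1, the mitotic cyclin, stood at 616, 398, 1125, 608 and 352 CPM against 230 to 668 (median 301). The G2/M share was largest in cell 3 of set 1, at 1.59%, and smallest in cell 6 of set 2, at 0.495%. G1/S genes lay 0.12 above the median of all genes, a distance that changed side among settings, and took 0.875% to 0.975% of set 1 and 0.696% to 1.19% of set 2.

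Genes of the p53 response marked 1 cell of set 1. The list took 0.371% of counts in cell 5 and 0.0987% to 0.167% in the other 4, while set 2 ran from 0.0990% to 0.143%. MDM2, which degrades p53, stood at 140, 405, 138, 259 and 612 CPM in set 1 and 73.1 to 230 (median 125) in set 2. RRM2B, a p53-induced ribonucleotide reductase subunit, stood at 63.8, 131, 118, 54.1 and 815 CPM against 0 to 211 (median 99.1). CDKN1A, the p53-induced inhibitor of cyclin-dependent kinases, stood at 0.152, 0, 0, 0 and 125 CPM against 0 to 16.6. The high values of RRM2B and CDKN1A were both in cell 5. Without that cell the log2 ratio of RRM2B turned from lower to higher in set 2 (0.25). That of CDKN1A turned too, but on 1 count over the other 4 set 1 cells against 100 in set 2, 94 of them in cell 1, a ratio of 67.1 with a counting interval of 11.8 to 2676. DDIT4, a stress-induced inhibitor of mTORC1, was also highest in cell 5, at 1319 CPM against 66.6 to 368 in the other set 1 cells.

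For several housekeeping groups the list stayed near the median of all genes while single members differed. Nuclear genes of oxidative phosphorylation lay 0.11 below it, with 31 of 77 above. Of the 77, 3 kept apart, all lower in set 2, beside 1.66% of all genes. NDUFS8, a complex I subunit, stood at 256, 190, 248, 194 and 245 CPM in set 1 and 94.1 to 160 (median 134) in set 2, 1.78-fold lower; NDUFB7 and COX8A were 2.26-fold and 1.36-fold lower. Proteasome subunits lay 0.04 above the median, yet PSMB5, a catalytic subunit, stood at 975, 927, 892, 940 and 838 CPM against 437 to 699 (median 547), 1.63-fold lower. PSMC3, an ATPase of the proteasome's cap, was 2.11-fold lower. Neither overlapped, and they were 2 of 32 subunits, beside 1.66% of all genes lower without overlap. Aminoacyl-tRNA synthetases lay 0.03 below, with MARS, the methionyl enzyme, 1.70-fold lower and kept apart, 1 of 35 beside that 1.66%. Mitochondrial ribosomal proteins lay 0.07 below, and cytoskeleton genes 0.04 above. Cholesterol and lipid synthesis genes lay 0.32 above, with 20 of 31 above the median. None kept apart, beside 0.85% of all genes higher and 1.66% lower without overlap. FADS2, a fatty acid desaturase, stood at 77.9, 18.4, 99.1, 121 and 84.1 CPM against 90.4 to 321 (median 268).

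Markers of other cell types and nuclear noncoding RNAs rested on few measured genes. Neural and radial glia markers lay 0.45 below the median of all genes, with 4 of 5 below it, and their share was 0.0731% to 0.108% in set 1 and 0.0533% to 0.0684% in set 2. PTPRZ1, a receptor phosphatase of radial glia that stem cells also express, stood at 446, 588, 388, 604 and 331 CPM against 179 to 404 (median 318). Its cells overlapped, and the part of these markers in other differences was not tested. KRT7, a trophoblast and epithelial keratin, had counts in 1 set 1 cell (39.7 CPM) and in all 6 of set 2, at 0.625 to 48.7 (median 25.0). Nuclear noncoding RNAs lay 0.52 below the median, with TUG1 at 131, 146, 127, 138 and 311 CPM against 1.22 to 236 (median 62.5), and snoRNA host genes 0.22 below. Germ layer, fibroblast and immediate early genes lay 0.36, 0.26 and 0.53 below the median, but all 3 lists moved above it when cell 1 of set 1 was left out, to 0.06, 0.18 and 0.02. FOS, an immediate early gene, stood at 191 CPM in that cell and at 39.6, 0, 61.0 and 0 in the other 4 of set 1.

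Cell-to-cell spread was slightly larger in set 1. Over the 3200 genes that reached 50 CPM in each set, the coefficient of variation (CV, the SD over the mean of CPM) had a median of 0.425 in set 1 and 0.384 in set 2, and was larger in set 1 for 59.2% of genes. Without cell 4 of set 1 the median CV of set 1 was 0.391, so the gap leaned on that cell. Spread fell with abundance in both: the median CV was 0.616 and 0.540 in the lowest of 5 equal bins of genes by level (median 66.9 CPM) and 0.256 and 0.231 in the highest (median 443 CPM). In the live FRISCR cells the medians were 0.482 and 0.483. Across genes the CV of one set tracked that of the other with a Pearson r of 0.455 and a Spearman rho of 0.486, a description only, since the genes of a set share its libraries and depth.

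Gene groups differed in their spread but also in level, with which spread falls, and the lists were not matched for level. Ribosomal protein genes (median 469 CPM) had the lowest median CV of the lists, 0.185 in set 1 and 0.171 in set 2. Low values were also found for proteasome subunits (0.242 and 0.206, 324 CPM), oxidative phosphorylation (0.250 and 0.239, 167 CPM) and splicing factors (0.272 and 0.215, 300 CPM). The level bins of all genes had 0.256 and 0.231 at 443 CPM and 0.363 and 0.328 at 197 CPM. G2/M genes (144 CPM) spread more widely, at 0.472 and 0.534, and were a group with the larger value in set 2. The bin of all genes at 122 CPM had 0.454 and 0.408. Aminoacyl-tRNA synthetases had 0.479 in set 1 and 0.320 in set 2, and genes of the endoplasmic reticulum and integrated stress response 0.413 and 0.288.

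CP110, a centriole protein, was among the genes most variable in both sets, at 64.1, 0, 21.8, 0.232 and 204 CPM in set 1 and 0.172 to 183 in set 2, with CVs of 1.48 and 1.35. CHAC1 and HERPUD1, both of the unfolded protein response, TRIM22 and the desmosome gene DSP were in the same group. VDAC3, a channel of the mitochondrial outer membrane, was steady in set 1, at 278, 265, 310, 287 and 291 CPM, and ranged from 101 to 538 in set 2 (CV 0.0581 and 0.571). Opposite to it, POLR2A, the largest subunit of RNA polymerase II, stood at 357, 124, 40.9, 149 and 2.82 CPM in set 1 and 140 to 223 in set 2 (CV 1.02 and 0.179). GTF2I, a general transcription factor, ran from 161 to 437 CPM in set 1 and only from 352 to 400 in set 2 (CV 0.336 and 0.0506). PRDX1, a peroxide-reducing enzyme, was steady in both, with CVs of 0.0691 and 0.0888, and was picked for that after values were seen.

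**Figure D4:**
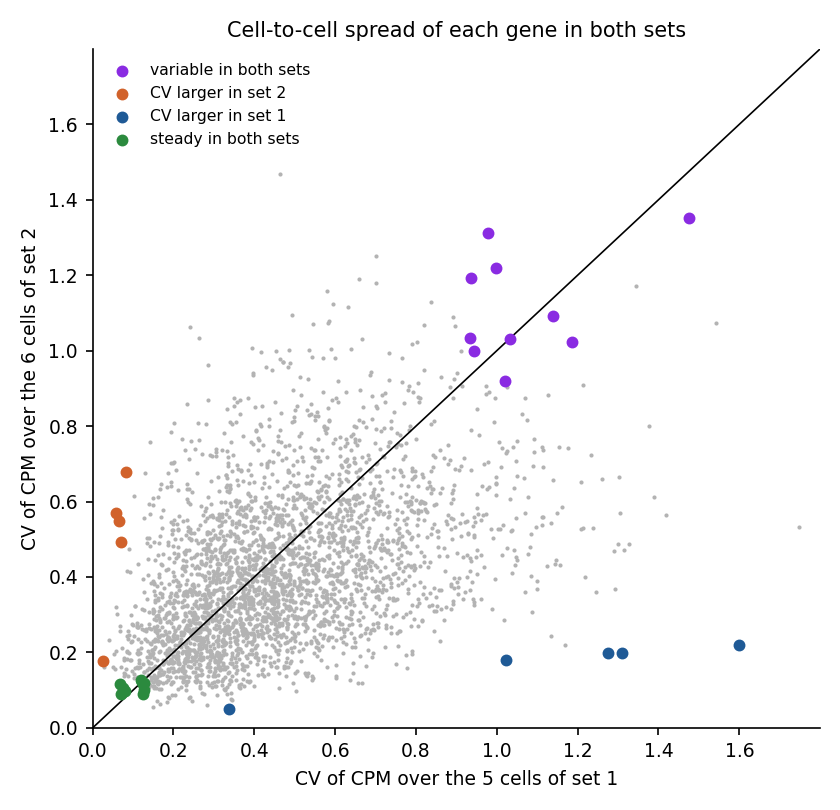
Coefficient of variation of CPM over the 5 set 1 cells (x axis) and the 6 set 2 cells (y axis) for the 3200 genes that reached 50 CPM in each set. Coloured points are named genes; the median is 0.425 on the x axis and 0.384 on the y axis, so the cloud lies slightly below the diagonal.

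Whole profiles did not sort cleanly by set. Pearson's r of log2(CPM + 1) over 8509 genes had a median of 0.549 among the 10 pairs of cells within set 1 (0.505 to 0.572), 0.576 among the 15 within set 2 (0.548 to 0.625) and 0.536 among the 30 pairs across sets (0.474 to 0.594). The ranges overlapped. These coefficients are across genes, which are not independent replicates. Cell 4 of set 1 stood lowest, with a median of 0.517 to its own set. Cells 1 and 3 of set 1 had their highest correlation with a set 2 cell rather than with one of their own set. Every set 2 cell had its highest correlation within set 2, and a higher median r to its own set than to set 1.

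Genes apart by set in live Triton cells were followed in the cells prepared otherwise, which are other libraries. Of the 63 genes higher in every set 2 cell, 57 were measured in live FRISCR cells, and 49 of those had a ratio above 1 there, with a median log2 ratio of 0.42 over the 57. In fixed FRISCR cells 43 of 57 did, with a median of 0.59, and in fixed Triton cells 15 of 36, with a median of -0.27. Of all genes, 48.8% had a ratio above 1 in both FRISCR conditions and 54.5% in fixed Triton cells. For the 123 lower genes the count in the same direction was 60 of 106, 62 of 104 and 34 of 100, with medians of -0.11, -0.22 and 0.37. Of all genes, 51.2% had a ratio below 1 in both FRISCR conditions and 45.5% in fixed Triton cells. Over all genes the log2 ratios of live Triton and live FRISCR cells had an r of 0.106, as a description across genes. Set differences without overlap were fewer in live FRISCR cells (15 genes higher, 0.195%, and 6 lower, 0.0779%) and fixed FRISCR cells (30, 0.393%, and 15, 0.197%). Of the 63 genes, 2 in live and 1 in fixed FRISCR cells kept apart in the same order, and of the 123, 0 and 2. The FRISCR groups hold more cells, so non-overlap is harder to meet there. Fixed Triton cells, only 4 and 3, had 138 genes higher (2.75%) and 95 lower (1.90%). The median size of the log2 ratio was 0.47 in live FRISCR, 0.52 in fixed FRISCR and 2.24 in fixed Triton cells.

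Set differences in live Triton cells showed little trend with transcript length or GC content. With genes in 5 equal bins, the median log2 ratio of the longest bin minus that of the shortest was -0.06, and that of the most GC-rich minus the poorest -0.07. The same codes gave -0.45 for length and 0.58 for GC content in live FRISCR cells and -0.25 and 0.39 in fixed FRISCR cells. In fixed Triton cells the values were 0.07 and 0.59. Length and GC values were found for 98.4% of the genes compared. For GC content the sign changed with single live Triton cells left out, the value running from -0.21 to 0.12.

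**Figure D5:**
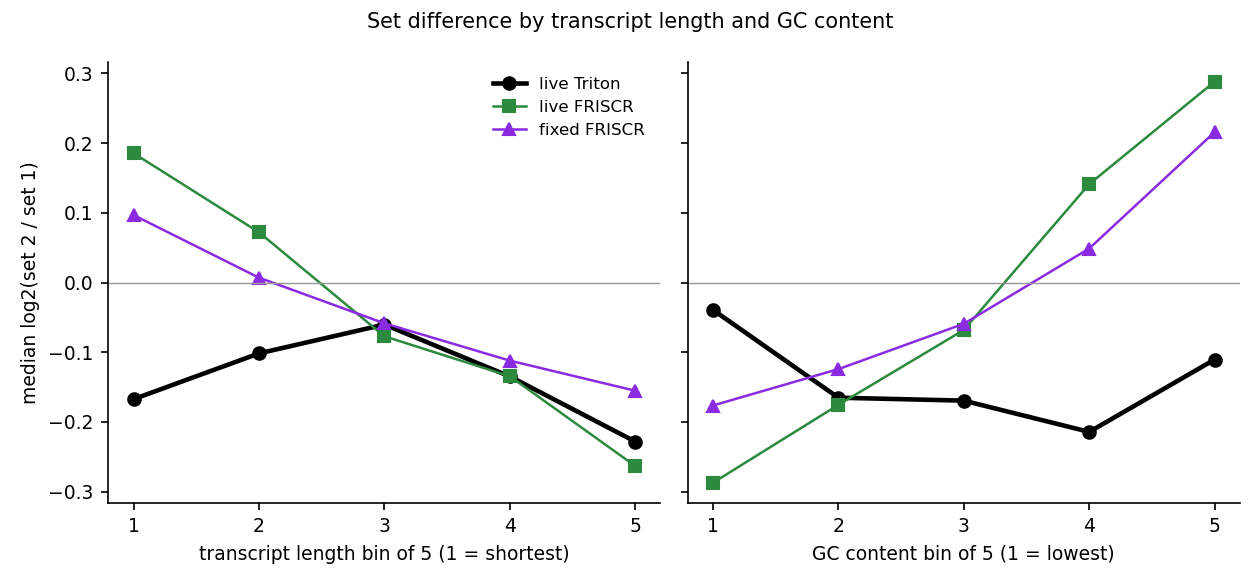
Median log2 ratio, set 2 over set 1, for genes in 5 bins of transcript length (left, 1 shortest) and of GC content (right, 1 lowest) in live Triton, live FRISCR and fixed FRISCR cells. The live Triton line differs by -0.06 and -0.07 from first to last bin, while the live FRISCR line moves by -0.45 and 0.58. Fixed Triton cells are not drawn.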

How the data were processed

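Single H1 cells were made into libraries by Smart-seq2 with Nextera XT, as the labels' protocols state; the extraction text there describes cortical tissue, and how these cells were sorted is not given in it. The authors deposited 1 table of expected counts (40.3% of the values above 0 are fractional) and 1 table of TPM values, each with 23045 rows and a column per cell. Per the submitters' processing notes, reads were placed on GRCh37 (hg19). No aligner, quantifier or annotation is given in the sources used here. GENCODE release 29 lists 19074 of the row names, another 1946 are older names of its genes, and 2025 match nothing. No row begins with MT- and none is a spike-in. No coordinates are printed, since the reference at hand is of another build.

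Counts were rounded to whole numbers and divided by the cell's total (CPM). Between sets, summed counts over summed totals were compared for genes with at least 20 CPM in either set, with a floor of 3 counts over a set and exact 95% binomial counting intervals. A ratio past 2-fold and non-overlap of cells serve as descriptions, not tests. Spread used genes reaching 50 CPM in each set. Per-cell depth was 4310731 to 6594061 counts. Named genes were up to 12 each way by size among non-overlapping genes with at least 50 CPM in the higher set, from each list its 3 top members by level and its extremes either way, and for spread the 10 genes largest in both sets and 5 each way; others are said to be chosen after their values were seen, and members described because their cells did not overlap were also picked from the lists that way. The cells and the 34 lists were chosen with earlier results of these data known. Alternatives were TMM factors (edgeR 4.0.16), median-of-ratios factors (DESeq2 1.42.0) and totals without rRNA-named and 5 abundant rows. Others were a mean over cells, the TPM values, other filters and pseudocounts, and leaving out each cell. Class levels under TMM and median-of-ratios factors and class shares without CD24 or TVAS5 were added after seeing the data. Python 3.11.15 with numpy 2.4.6 and R 4.3.3 were used. Scripts were tested on simulated data.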

Additional observations from a re-analysis of the deposited data

Results flagged for a closer look

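Of 86 combinations of set and measure examined for a cell far from the rest of its set, 16 held one, 4 in set 1 and 12 in set 2. Chance gives about 1 in 20 for independent measures, but these overlap. The 5 abundant rows count alone and summed, and the protein-coding and top-100 shares move with them. The 16 of 86 therefore cannot be set against that rate. Of the 16, cell 1 of set 2 accounts for 10. Its share of counts in the 5 abundant rows without a gene symbol was 21.4%, with 13.0% in TVAS5, 3.25% in BC018860, 1.94% in OK/SW-cl.16, 1.43% in STRF6 and 1.82% in cytochromeb. Protein-coding rows took 75.1% of its counts against 83.9% to 86.2% in the other 5 cells, and its 100 most abundant genes took 36.6%. Its share in splicing factors was 1.94% and in p53 targets 0.143%. Cell 6 of set 2 stood high in glycolysis (2.67%) and hypoxia genes (0.434%). In set 1, cell 5 stood high in p53 targets (0.371%), cell 2 high in neural markers (0.108%), and cell 1 apart in G1/S genes (0.875%) and in small structured RNA (0.000485%).

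For 4 genes every cell of one set lay above every cell of the other in live Triton cells and the order was the opposite in fixed Triton cells. This difference was not tested. Another 4 genes, 1 higher and 3 lower in set 2, kept apart in the same order in fixed Triton cells, where with 4 and 3 cells 2.75% of all genes lay higher and 1.90% lower without overlap. On the log2 scale of set 2 over set 1, ARL2 was -1.16 in live and 1.07 in fixed Triton cells. RNF213 was -1.998 and 1.92, SEPT9 1.58 and -5.37, and psiTPTE22 -1.64 and 0.78. In fixed Triton cells RNF213 stood at only 0.730 CPM in set 1 and 2.76 in set 2, below the 20 CPM filter.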

How the results depend on the processing

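The intervals cover counting error only, and with 5 and 6 cells the median of a gene and its non-overlap can turn on 1 cell. No paired analysis was possible because the numbers only name cells within a set and the results come from no test. Genes over 2-fold higher in set 2 numbered 402 with TPM values, 1632 and 250 at a filter of 5 and 50 CPM and 3195 with no filter. Those lower numbered 629, 1972, 420 and 3605, and 598 with TMM factors. The median size of the log2 ratio was 0.47, 0.63, 0.43 and 0.84 under the same 4 settings. Genes without overlap were 124 higher and 54 lower with TMM, 106 and 69 with median-of-ratios factors, and 95 higher without the abundant rows. The correlation within set 1 was 0.674 and 0.468 with pseudocounts of 10 and 0.1, 0.620 by rank and 0.612 with TPM; within set 2 it was 0.718, 0.482, 0.661 and 0.666, and 0.625 at 50 CPM; between sets it was 0.673, 0.451, 0.615 and 0.621. The median CV was 0.381 and 0.339 in the sets with TPM and 0.266 and 0.239 at 200 CPM.

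With each cell left out in turn, genes over 2-fold numbered 685 to 866 higher and 987 to 1091 lower, the median size was 0.513 to 0.553, and non-overlapping genes numbered 72 to 125 and 142 to 193, both above the counts with all cells, since fewer cells must keep apart. The count reached 125 higher without cell 1 of set 2 and 116 without cell 1 of set 1, and 193 lower without cell 4 of set 1. The median CV of set 1 was 0.391 to 0.425. Of the 32 lists, 12 changed side under 1 or more settings; 9 of these lay within 0.2 of the median of all genes and are not counted as differing. For the other 3, over the cells left out, the germ layer list ran from -0.62 to 0.33 (highest without cell 3 of set 1, and 0.06 without its cell 1). The fibroblast list ran from -0.53 to 0.18 and the immediate early list from -0.98 to 0.0195, both highest without cell 1 of set 1. The log2 ratio of COL1A1 ran from -2.01 to 0.0248 (without cell 1 of set 1), and those of RRM2B from -1.40 to 0.25, CDKN1A from -6.69 to 6.07 (on 1 count in set 1) and FN1 from -2.01 to 0.0612, each highest without cell 5 of set 1. The protein-coding share was higher in set 2 by 0.357 percentage points without the abundant rows in the total. Divided by TMM or median-of-ratios factors, a class sum is a rescaled level and no longer a share of the cell's counts. On that scale protein-coding rows were higher in set 2 by 7.04 with TMM and 2.35 with median-of-ratios factors, in percent of the scaled total. The level of aminoacyl-tRNA synthetases, on the same scale, was higher by 0.0447 with TMM and 0.0166 with median-of-ratios factors. A count of 0 allows up to 0.115 CPM in set 1 and 0.0949 CPM in set 2. For gene lists, named genes and class shares, 2337 of 2409 recomputed values stayed within the spread between cells, 59 moved by more, and 13 changed side for results counted as differing. For single genes that spread could be wide, such as 3.32 on the log2 scale for FN1. Few values could move past it, so the 2337 say little about how firm the results are.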
